A study of Mus musculus with 12 samples.

Results

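At the neuromuscular junction, the contact between motor nerve and muscle fibre, 10 genes were followed across the 4 groups of the study: the acetylcholine receptor subunit genes Chrna1, Chrnb1, Chrnd, Chrne, Chrng and Chrna9, the clustering genes Musk, Lrp4 and Rapsn, and the acetylcholinesterase gene Ache. They were the 10 of 43432 gene identifiers in the count table whose symbols in the GENCODE annotation matched these names. RNA was sequenced from gastrocnemius, the large calf muscle, of male mice. The 4 groups were exercised MKO, exercised WT, sedentary MKO and sedentary WT, with 3 libraries each and 12 in all. MKO mice lacked cellular Feimin (cFeimin MKO in the labels), and WT mice were fl/fl littermates that carried the floxed gene. The promoter that removes the gene in MKO mice, the age of the mice and whether animals were pooled do not appear in the sources used here. Exercised mice had run for 90 min at 60% of maximal speed. The labels do not give the hour of sampling of either state, and an effect of the time of day and one of the run cannot be told apart.

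Acetylcholine released by the nerve opens a receptor of 5 subunits in the fibre membrane. In adult muscle these are alpha1, beta1, delta and epsilon, and in fetal or denervated muscle the gamma subunit stands in place of epsilon. The nerve also releases agrin, which binds LRP4 on the fibre and switches on the kinase MuSK. Rapsyn then gathers the receptors beneath the nerve ending, and acetylcholinesterase breaks the transmitter down. Loss of nerve activity is known to raise Chrna1, Chrng and Musk along the whole fibre, a response driven by myogenic factors such as myogenin that bind E-boxes in their promoters.

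The promoters of 5 of these genes are printed to show the E-boxes of the subunit genes that varied most and the N-box of the epsilon gene. RefSeq gave a window before the start of the gene for 7 members (GRCm38.p6), and the 250 bases before each start were searched on both strands. All 7 windows held the E-box CANNTG, which 66.2% of 32851 windows of this length in the table also held. The form CAGCTG, which is one kind of CANNTG, stood in 5 member windows and in 13% of all windows. At least 2 copies of CAGCTG occurred in 1.26% of all windows, and those of Chrna1 and Chrng held 2 each. The form CAGGTG, read as CACCTG from the other strand, stood in 3 member windows and in 17.2% of all windows. The N-box CCGGAA, bound by Ets factors and known from genes expressed at synaptic nuclei, stood in 1 member window, that of Chrne, and in 12% of all windows. Capitals mark each CANNTG and the CCGGAA. A match of letters is a description and not a binding site. The windows are chr2:73580339-73580588 (minus strand) for Chrna1, chr1:87205561-87205810 (plus) for Chrng, chr11:70619195-70619444 (minus) for Chrne, chr5:65966874-65967123 (plus) for Chrna9 and chr4:58285712-58285961 (plus) for Musk. Those of Chrng and Chrna9 lie within the GENCODE bounds of the gene, which has an earlier start there.
Chrna1: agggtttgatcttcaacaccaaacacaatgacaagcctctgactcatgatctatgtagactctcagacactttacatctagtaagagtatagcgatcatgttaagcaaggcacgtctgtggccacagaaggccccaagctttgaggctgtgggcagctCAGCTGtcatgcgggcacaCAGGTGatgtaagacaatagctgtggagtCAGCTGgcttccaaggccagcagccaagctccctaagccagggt
Chrng: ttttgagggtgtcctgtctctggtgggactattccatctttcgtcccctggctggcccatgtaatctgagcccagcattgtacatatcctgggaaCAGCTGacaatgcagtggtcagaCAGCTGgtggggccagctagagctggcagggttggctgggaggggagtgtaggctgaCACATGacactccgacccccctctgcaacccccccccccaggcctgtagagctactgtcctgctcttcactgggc
Chrne: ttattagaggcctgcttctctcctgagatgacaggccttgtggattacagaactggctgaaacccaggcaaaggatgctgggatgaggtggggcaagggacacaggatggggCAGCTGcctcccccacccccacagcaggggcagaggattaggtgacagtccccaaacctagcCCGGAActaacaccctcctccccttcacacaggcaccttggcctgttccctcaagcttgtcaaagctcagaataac
Chrna9: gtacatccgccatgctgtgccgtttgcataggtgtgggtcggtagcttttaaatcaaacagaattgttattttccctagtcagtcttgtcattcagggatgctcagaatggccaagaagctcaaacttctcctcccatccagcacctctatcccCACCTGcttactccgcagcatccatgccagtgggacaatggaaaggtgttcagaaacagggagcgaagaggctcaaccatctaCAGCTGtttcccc
Musk: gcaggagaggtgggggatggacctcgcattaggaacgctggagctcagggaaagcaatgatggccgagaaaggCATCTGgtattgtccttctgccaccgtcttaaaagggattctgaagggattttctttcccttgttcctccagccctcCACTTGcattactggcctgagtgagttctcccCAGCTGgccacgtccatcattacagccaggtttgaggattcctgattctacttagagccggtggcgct

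Library totals lay between 14324010 and 14563501 counts, and 3 counts corresponded to 0.181 to 0.222 CPM (counts scaled to library size and normalised). B230219D22Rik, taken from general knowledge to be the gene for Feimin, averaged 4.06 ± 0.534 CPM in exercised MKO and 25.4 ± 4.15 CPM in exercised WT muscle (SD, n = 3 each). In sedentary muscle it averaged 4.92 ± 1.25 CPM in MKO and 22.6 ± 1.41 CPM in WT mice, so the libraries matched their genotype labels. All 8 muscle fibre markers were present, with a sum of at least 98259 CPM per library. Markers of the motor neuron were at 0 in every library for 5 of 8 genes (Chat, Slc18a3, Slc5a7, Mnx1 and Nefl), and the other 3 never reached 10 counts. Sedentary MKO replicate 3 stood apart, with 1121 CPM summed over 10 slow-fibre markers against 2519 to 4101 CPM in the other 11 libraries. Exact zeros need care in this table. Among 1562 genes with a mean of 10 to 20 counts, 1.76% of values were 0 and 0.582% were 1 to 3, so zeros outnumbered the values next to them. StringTie is among the tools named in the submitters' processing notes, and its part in these zeros was not tested.

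Per length of merged exons, the member genes differed widely in level. In all 4 groups Rapsn was highest, at 13.7 ± 0.577 CPM per kb in exercised MKO, 13.1 ± 2.25 in exercised WT, 12.2 ± 0.890 in sedentary MKO and 11.3 ± 0.811 in sedentary WT muscle. Chrnb1 followed, with means of 8.69 to 9.56 CPM per kb. The libraries of Rapsn and Chrnb1 did not overlap in any group other than sedentary MKO. Ache (5.01 to 7.81) and Chrne (5.28 to 6.81) came next and overlapped in every group. Chrna1 averaged 6.2 ± 4.56 CPM per kb in exercised MKO and 1.84 ± 0.216 in exercised WT muscle, and it overlapped with Chrne in both MKO groups but in neither WT group. Musk lay below Chrna1 in 3 groups and above it in exercised WT muscle, where Musk had 3.53 ± 0.885 and Chrna1 1.84 ± 0.216 CPM per kb and the libraries did not overlap. Chrnd (0.712 to 1.17), Lrp4 (0.341 to 0.424), Chrna9 (0 to 0.752) and Chrng (0 to 0.596) stood at the low end. In bulk muscle RNA, fewer cells or nuclei that express a gene and less RNA in each cannot be told apart. All 10 genes passed the filter on low counts, but Chrng did so through 4 libraries (3 sedentary MKO and 1 exercised MKO) and Chrna9 through 7 (6 exercised and 1 sedentary MKO).

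**Figure D1:**
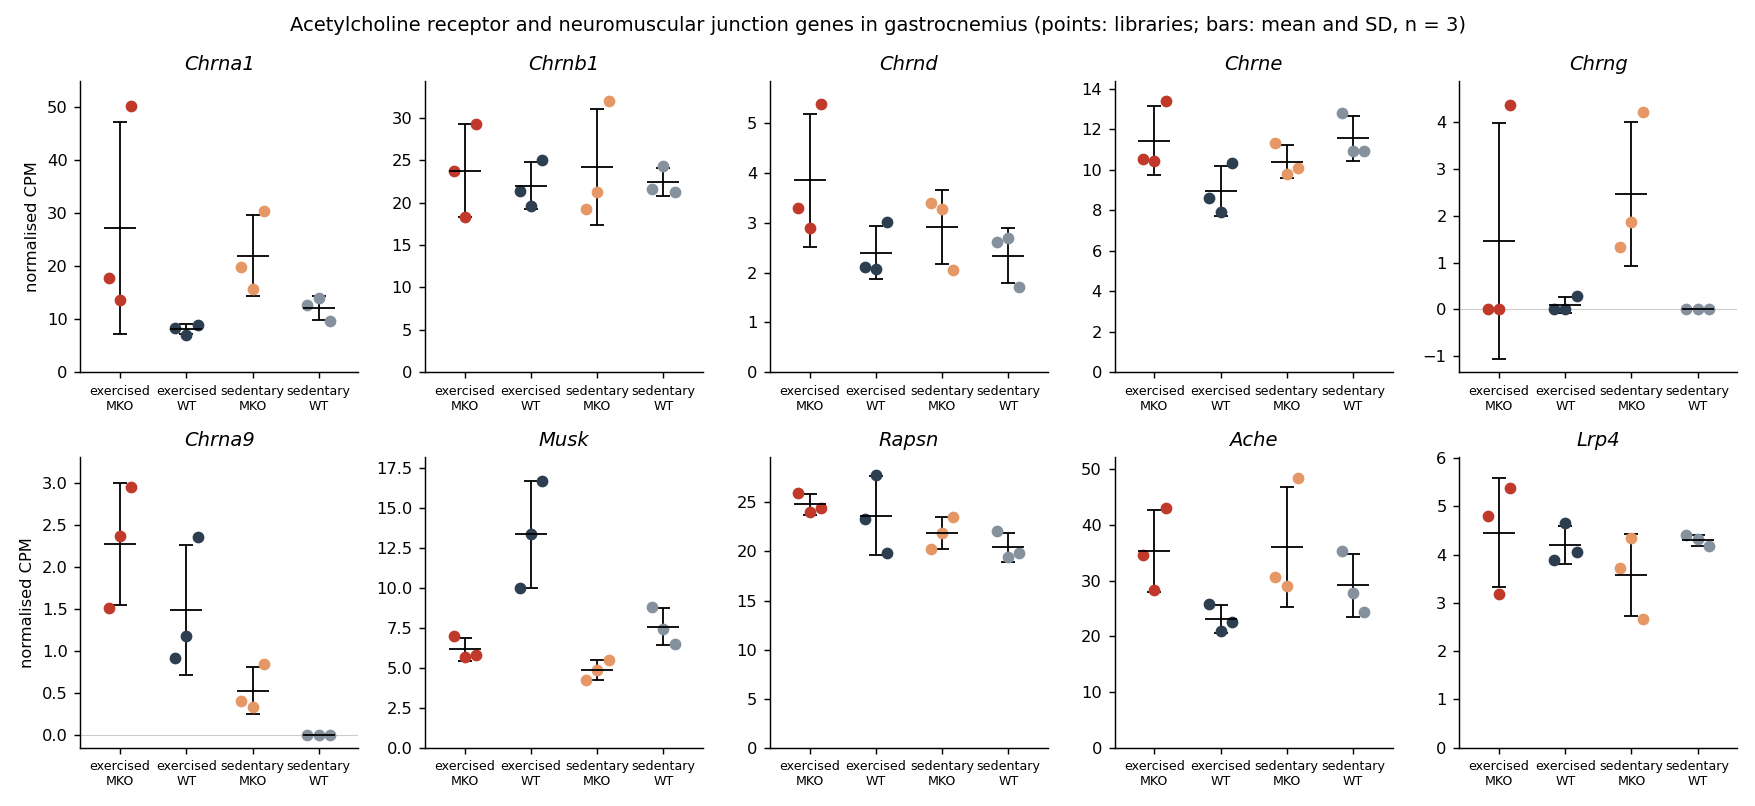
Normalised CPM of the 10 genes (1 panel each, linear axis) in exercised MKO, exercised WT, sedentary MKO and sedentary WT gastrocnemius. Points are libraries and bars the mean and SD of 3. Chrna1 reaches 50.2 CPM in 1 exercised MKO library, Musk lies between 9.98 and 16.7 CPM in exercised WT libraries, and Chrna9 is at 0 in all 3 sedentary WT libraries.

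Genes were compared in an edgeR quasi-likelihood model with p adjusted over all 14486 genes tested, and passed at an adjusted p under 0.05. Between exercised MKO and WT muscle none of the 10 members passed, where 0.0345% of all genes did; DESeq2 passed 1 (Chrna1) and limma-voom none. A positive log2 fold change was found for 9 and a negative one for Musk, with a member median of 0.48 beside 0.007 for all genes. Chrng, among the 9, met the filter through MKO libraries alone, so its sign is a description. Chrnb1, Chrng, Rapsn and Lrp4 each turned negative with 1 library left out. At an unadjusted p under 0.05 there were 5 members (Chrna1, Chrnd, Chrne, Ache and Musk), beside 16.0% of all genes. The groups did not overlap for 4 members, with MKO libraries above for 3 (Chrna1, Chrne and Ache) and below for 1 (Musk), beside 23.1% of all genes in either direction. Between sedentary MKO and WT muscle again none passed, where 0.00690% of all genes did, and DESeq2 and limma-voom passed none either. Musk had an unadjusted p under 0.05, as 3.76% of all genes did. So had Chrng and Chrna9, but no WT library at rest reached the filter for either gene. They were tested because of libraries in which they are high, so they do not count beside that share. There the groups did not overlap for 4 members, with MKO libraries above for 3 (Chrna1 and, with the same limit, Chrng and Chrna9) and below for 1 (Musk), beside 10.3% of all genes.

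With running, 1 of the 10 members, Chrna9, rose in MKO muscle, where 4.05% of all genes passed and 2.29% passed upwards. In WT muscle 2 members rose, Chrna9 and Musk, where 8.24% of all genes passed and 4.14% passed upwards. Averaged over both genotypes, an alternative added after the data were seen, 2 members passed, again Chrna9 and Musk, beside 13.6% of all genes. In MKO muscle the groups did not overlap for 3 members, Chrna9, Musk and Rapsn, each higher after running, beside 21.7% of all genes in either direction. In WT muscle they did not overlap for 4, Chrna9 and Musk higher and Chrna1 and Chrne lower after running, beside 27.3% of all genes. No gene of the 14486 passed for a difference between the exercise responses of MKO and WT muscle (0%). At an unadjusted p under 0.05 that difference had 534 genes by edgeR, 3.69% of those tested, and Chrna9 and Chrne were the 2 members among them. DESeq2 passed 3 genes and limma-voom 4, and neither passed a member. Chrna9 met the filter through 6 exercised libraries and 1 sedentary library, so its part in these counts is a description. The 2 genotype comparisons and the 2 exercise comparisons share libraries, so their values are not independent of each other.

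**Figure D2:**
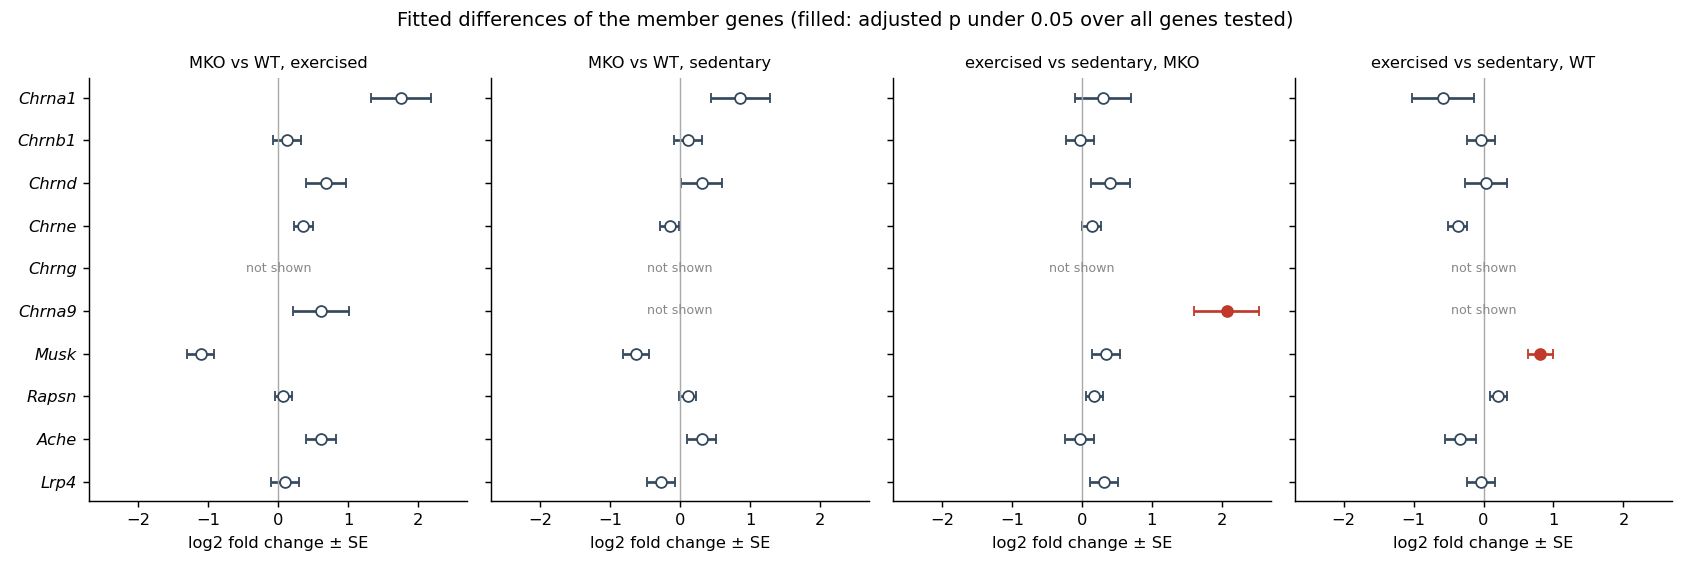
Log2 fold change ± SE of each gene from the edgeR model, in 1 panel per comparison, with filled points where the adjusted p over all genes was under 0.05. Filled are Chrna9 (2.07) in exercised against sedentary MKO muscle and Musk (0.81) in exercised against sedentary WT muscle; comparisons of Chrng and Chrna9 in which a group had few counts or none are not drawn.

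Chrna1 (chromosome 2, 73563215 to 73580338, minus strand, GRCm38.p6, 9 exons) encodes the alpha1 subunit, which carries most of the acetylcholine binding site. In exercised muscle it had 17.8, 13.6 and 50.2 CPM in MKO libraries (replicates 1, 2 and 4), against 8.35, 7.02 and 8.85 CPM in WT libraries (replicates 3, 4 and 5). In sedentary muscle it had 19.8, 15.6 and 30.5 CPM in MKO libraries, against 12.7, 13.9 and 9.67 CPM in WT libraries. Groups did not overlap in either state, although the MKO libraries scattered more than the WT ones. The log2 fold change of MKO against WT was 1.75 ± 0.43 after running (edgeR, unadjusted p = 0.00172, adjusted p = 0.203) and 0.86 ± 0.42 at rest (adjusted p = 1). Neither passed. Exercised MKO replicate 4 carried much of the first value, which was 0.95 without that library (adjusted p = 0.648) and 2.06 without exercised MKO replicate 2 (adjusted p = 0.0423). By DESeq2 the same comparison gave 1.75 with an adjusted p of 0.00499. Running gave 0.30 ± 0.40 in MKO (adjusted p = 0.811) and -0.58 ± 0.44 in WT muscle (adjusted p = 0.516), and the MKO value turned to -0.49 without exercised MKO replicate 4.

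The other subunits of the adult receptor varied less than Chrna1. Chrnb1 (chromosome 11, 69784036 to 69795943, minus strand), the beta1 subunit, lay between 18.3 and 32.0 CPM in all 12 libraries and had log2 fold changes of -0.03 to 0.12 in the 4 comparisons, each with an SE of 0.20. Chrnd (chromosome 1, 87190607 to 87200070, plus strand), the delta subunit, had 3.29, 2.89 and 5.39 CPM in exercised MKO against 2.12, 2.07 and 3.02 CPM in exercised WT libraries. These overlapped, with a log2 fold change of 0.68 ± 0.29 (adjusted p = 0.279), or 0.35 without exercised MKO replicate 4. In sedentary muscle Chrnd had 3.40, 3.28 and 2.06 CPM in MKO and 2.61, 2.7 and 1.71 CPM in WT libraries.

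Chrne (chromosome 11, 70614883 to 70619216, minus strand) encodes the epsilon subunit of the adult receptor. It had 10.5, 10.4 and 13.4 CPM in exercised MKO, against 8.57, 7.90 and 10.3 CPM in exercised WT libraries, and 11.3, 9.76 and 10.1 CPM in sedentary MKO, against 12.8, 10.9 and 10.9 CPM in sedentary WT libraries. Exercised WT muscle was the low group, and its 3 libraries lay below all 3 of sedentary WT muscle. Running gave 0.14 ± 0.13 in MKO (adjusted p = 0.707) and -0.37 ± 0.14 in WT muscle (adjusted p = 0.135). The WT value was -0.48 (adjusted p = 0.037) without exercised WT replicate 5, exercised MKO replicate 4 and sedentary MKO replicate 3 together. The difference of these responses, MKO minus WT, was 0.51 ± 0.19 (unadjusted p = 0.0211, adjusted p = 0.983) and did not pass. The MKO against WT values were 0.36 ± 0.14 after running (adjusted p = 0.25), or 0.22 without exercised MKO replicate 4, and -0.15 ± 0.13 at rest (adjusted p = 1). The gene 4930544D05Rik lies within Chrne on the other strand with no shared exonic base and had 8 to 18 counts per library.

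Chrng (chromosome 1, 87204657 to 87212694, plus strand) encodes the gamma subunit of the fetal receptor and starts 4586 bases after Chrnd ends. Counts were 0, 0 and 61 in exercised MKO against 0, 0 and 4 in exercised WT libraries. In sedentary muscle they were 20, 28 and 70 in MKO against 0, 0 and 0 in WT libraries. The gene was thus counted in all 3 sedentary MKO libraries and in none of sedentary WT. If the zeros are read as counts, sedentary MKO muscle stood at least 12-fold higher, with 3 counts per library as the floor (edgeR, unadjusted p = 0.0116, adjusted p = 1), and the comparison did not pass. In exercised muscle the genotype comparison had an adjusted p of 0.352, and its direction turned without exercised MKO replicate 4, the 1 library of that group with counts. Running against rest in MKO muscle had an adjusted p of 0.826. Without exercised MKO replicate 4 the edgeR comparison gave Chrng as lower after running at an adjusted p of 0.0452. Chrng then met the filter only through the 3 sedentary MKO libraries, in which it is high, so that value is a description. Chrng was at 0 in 7 libraries and is 1 of 31 genes in the table that were at 0 in at least 6 libraries and reached 50 counts or more in another. Whether its zeros are estimates that failed was not tested.

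The makeup of the subunit RNA was set out per length. As a share of the sum of Chrng and Chrne, Chrng was 0%, 0% and 11.7% in exercised MKO, 0%, 0% and 1.15% in exercised WT, 4.58%, 7.22% and 14.5% in sedentary MKO and 0% in all 3 sedentary WT libraries. Epsilon RNA thus outweighed gamma RNA in all 12 libraries. The ratio of Chrna1 to Chrne was 0.651, 0.506 and 1.44 in exercised MKO, against 0.376, 0.342 and 0.330 in exercised WT libraries. At rest it was 0.677, 0.618 and 1.17 in MKO, against 0.383, 0.493 and 0.342 in WT libraries. All 6 MKO libraries lay above all 6 WT libraries in this ratio, by a narrow margin (0.506 against 0.493). Chrna1 over Chrnb1 was also apart, at 0.423 to 0.987 in MKO against 0.204 to 0.340 in WT libraries. Other ratios overlapped between the genotypes. Chrna1 over Chrnd was 3.54 to 11.1 in MKO and 2.19 to 4.23 in WT libraries. Chrnb1 over Chrnd was 7.07 to 20.2 in MKO and 10.7 to 16.2 in WT libraries. These ratios are a description, with no test.

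**Figure D3:**
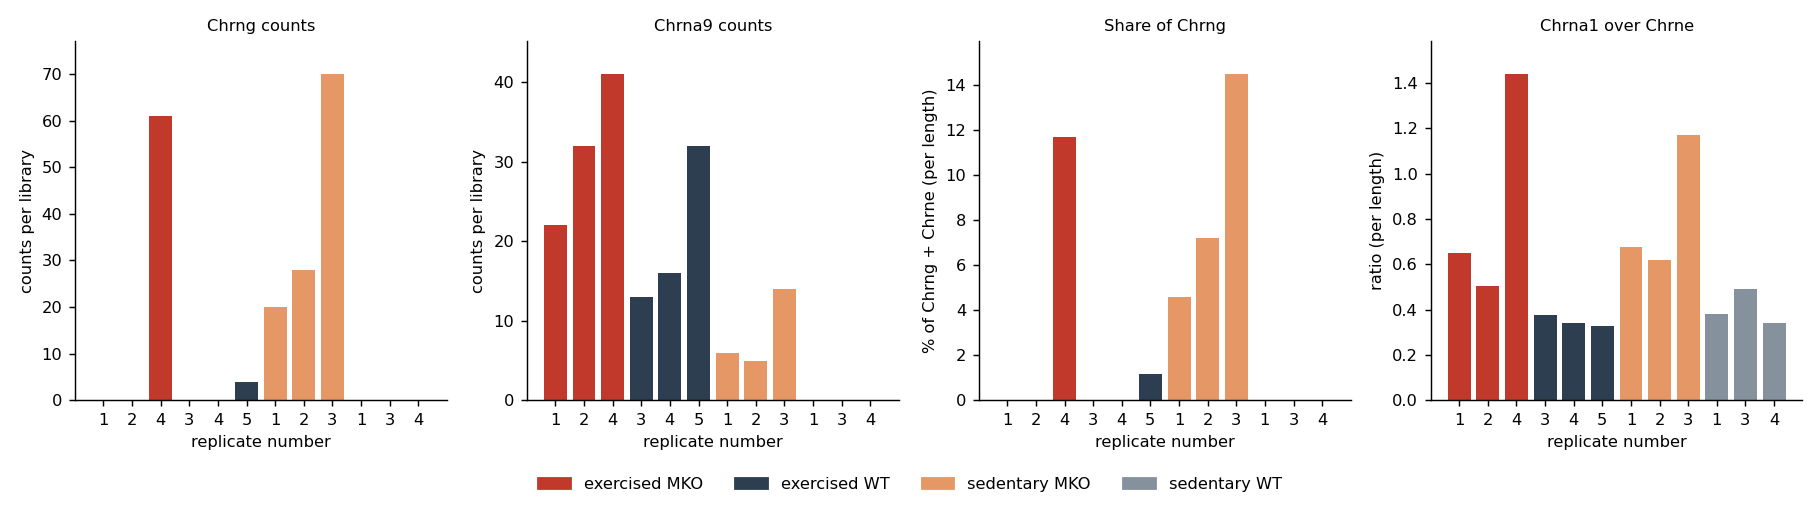
Counts of Chrng and of Chrna9, the share of Chrng in the sum of Chrng and Chrne per length, and the ratio of Chrna1 to Chrne per length, with 1 bar per library and colours for the groups. The 6 MKO libraries lie between 0.506 and 1.44 in the ratio of Chrna1 to Chrne and the 6 WT libraries between 0.330 and 0.493; the share of Chrng is at most 14.5%.

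Chrna9 (chromosome 5, 65934921 to 65977326, plus strand), the alpha9 subunit, is known above all from hair cells of the inner ear and is no part of the muscle receptor. Counts were 22, 32 and 41 in exercised MKO, against 6, 5 and 14 in sedentary MKO libraries, or 1.51, 2.37 and 2.95 CPM against 0.400, 0.334 and 0.847 CPM. In WT muscle they were 13, 16 and 32 in exercised, against 0, 0 and 0 in sedentary libraries. Groups did not overlap in either genotype. Chrna9 rose in MKO muscle by 2.07 ± 0.46 on the log2 scale (edgeR, adjusted p = 0.0377), and in WT muscle (adjusted p = 0.00238). If zeros are read as counts, the WT level after running was at least 7.22-fold higher than at rest, again with 3 counts per library as the floor.

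The call for Chrna9 in WT muscle had adjusted p-values of at most 0.02 under every alternative run, but it rests on the 3 zeros of sedentary WT muscle. The gene met the filter through all 3 libraries of each exercised group, 1 sedentary MKO library and no sedentary WT library. It was tested because of libraries in which it is high, so the alternatives lend the call no weight. All comparisons of Chrna9 are a description. The call in MKO muscle, which rests on no zero, was lost without exercised MKO replicate 2 (adjusted p = 0.116) or 4 (0.126), sedentary MKO replicate 1 (0.123) or 2 (0.135), or exercised WT replicate 4 (0.0578). It was also lost without a filter on low counts (0.0598); its log2 fold change lay between 1.83 and 2.61 with any library left out. Between genotypes, Chrna9 had a log2 fold change of 0.61 ± 0.40 after running (adjusted p = 0.47). At rest it was at least 2.56-fold higher in MKO muscle if zeros are read as counts (unadjusted p = 0.00115, adjusted p = 1). The difference of the exercise responses had an unadjusted p of 0.0049 and an adjusted p of 0.983. Among the 1562 genes with a mean count of 10 to 20, as Chrna9 has, 12 were at 0 in all libraries of a group.

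Musk (chromosome 4, 58285960 to 58374303, plus strand, 16 exon blocks) encodes the receptor kinase MuSK, which agrin and LRP4 switch on and without which no junction forms. It was the 1 member with a negative log2 fold change of MKO against WT in both states and no overlap of groups. After running it had 6.99, 5.70 and 5.82 CPM in MKO libraries, against 9.98, 13.4 and 16.7 CPM in WT libraries. At rest it had 4.26, 4.88 and 5.5 CPM in MKO libraries, against 8.80, 7.42 and 6.52 CPM in WT libraries. The log2 fold change of MKO against WT was -1.11 ± 0.19 after running (edgeR, unadjusted p = 7.60e-05, adjusted p = 0.111) and -0.63 ± 0.19 at rest (unadjusted p = 0.00698, adjusted p = 1). Neither passed over all genes. Averaged over both states, an alternative added after the data were seen, it was -0.87 ± 0.13 (adjusted p = 0.0627), and no member passed, beside 0.0138% of all genes. Without exercised WT replicate 3 the exercised comparison passed at -1.29 (adjusted p = 0.0399), and over all leave-one-out fits it lay between -1.29 and -0.92.

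Musk rose with running in WT muscle, where exercised libraries had 9.98, 13.4 and 16.7 CPM and sedentary libraries 8.80, 7.42 and 6.52 CPM. The log2 fold change was 0.81 ± 0.18 (adjusted p = 0.0164). The call was lost without exercised WT replicate 5 (0.62, adjusted p = 0.0577), sedentary WT replicate 3 (0.80, adjusted p = 0.0619) or sedentary WT replicate 4 (0.73, adjusted p = 0.068). It was also lost without exercised WT replicate 5, exercised MKO replicate 4 and sedentary MKO replicate 3 together (0.62, adjusted p = 0.0626). In MKO muscle the exercised libraries also lay above the sedentary ones, with 0.34 ± 0.20 (adjusted p = 0.482). The difference of the responses was -0.48 ± 0.27 (adjusted p = 0.983), so the larger WT value was not shown to differ from that in MKO muscle.

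Lrp4 (chromosome 2, 91457511 to 91513779, plus strand), the agrin receptor that works with MuSK, did not pass in any comparison. Its levels were 4.79, 3.19 and 5.39 CPM in exercised MKO, against 3.89, 4.65 and 4.06 CPM in exercised WT libraries, and 3.73, 4.34 and 2.66 CPM in sedentary MKO, against 4.4, 4.32 and 4.18 CPM in sedentary WT libraries. Rapsn (chromosome 2, 91035620 to 91045729, plus strand), the scaffold protein that anchors the receptor, was the steadiest of the clustering genes, at 19.4 to 27.8 CPM over all libraries. Its log2 fold changes lay between 0.07 and 0.21 with SEs of 0.12, and none passed. Set against Rapsn per length, Musk stood at 0.128, 0.113 and 0.114 in exercised MKO against 0.205, 0.229 and 0.402 in exercised WT libraries. At rest the ratio was 0.10, 0.106 and 0.112 in MKO against 0.190, 0.183 and 0.157 in WT libraries, so all 6 MKO libraries lay below all 6 WT libraries.

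Ache (chromosome 5, 137287519 to 137294466, plus strand) encodes acetylcholinesterase, the enzyme that ends the signal. It had 34.6, 28.4 and 43.1 CPM in exercised MKO, against 25.9, 21 and 22.6 CPM in exercised WT libraries, which did not overlap. In sedentary muscle it had 30.7, 29.1 and 48.4 CPM in MKO, against 35.4, 27.8 and 24.3 CPM in WT libraries, which did. MKO against WT gave 0.61 ± 0.22 after running (unadjusted p = 0.0159, adjusted p = 0.231) and 0.31 ± 0.21 at rest (adjusted p = 1), or 0.03 at rest without sedentary MKO replicate 3. Running gave -0.03 ± 0.21 in MKO and -0.33 ± 0.22 in WT muscle, and neither passed. The long noncoding RNA gene Gm42456 shares 98 exonic bases with Ache on the other strand and Gm13778 shares 4 with Rapsn. The sources used here do not give the strand setting of the counting, so reads from these stretches cannot be told apart.

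Several receptor genes were high in the same libraries. Over the 12 libraries, log2 CPM of Chrna1 correlated with that of Ache (Pearson r = 0.89), Chrng (0.78), Chrnd (0.65), Chrnb1 (0.64) and Chrne (0.64). It had r = 0.24 with Chrna9, 0.11 with Rapsn, -0.03 with Lrp4 and -0.66 with Musk. With each group's mean taken off, r was 0.90 for Chrng, 0.82 for Chrnb1, 0.79 for Ache, 0.64 for Chrne, 0.54 for Chrna9 and 0.48 for Chrnd. It was 0.20 for Lrp4, 0.12 for Musk and -0.04 for Rapsn. These points share groups and libraries, above all exercised MKO replicate 4 and sedentary MKO replicate 3, which had the highest values of Chrna1, Chrng and Ache. Among 12985 genes with a mean of at least 1 CPM, the patterns most like Chrna1 were those of Lgmn (0.95), Ehd4 (0.95) and Igf2 (0.94), and Lgmn was also the nearest to Ache (0.93). Nearest to Chrng were Dclk1 (0.91), Ppfia4 (0.91) and Tnnt2 (0.90), to Chrna9 Map1b (0.95), Lmna (0.93) and Plod2 (0.93), and to Musk Hsd17b7 (0.95), Aff1 (0.91) and Rnf144b (0.91). The nearest gene of the other 5 members had r from 0.81 (Alyref, to Lrp4) to 0.92 (Icam1, to Chrnd, and Dexi, to Rapsn). All are Pearson r over 12 libraries, given as a description.

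Other junction genes were read from lists of the pathway. Of 114 tested genes on 8 lists, other than the members, none passed by edgeR between MKO and WT muscle in either state. At an unadjusted p under 0.05 there were 21 of the 114 after running, beside 16.0% of all genes, and 8 at rest, beside 3.76%. DESeq2 passed 1 of them after running, Dmd, among 84 genes of the table, and none at rest. With running in WT muscle, 2 of 21 tested genes of the agrin and MuSK pathway rose: Pak1, a kinase of the actin cytoskeleton (0.54 ± 0.13, adjusted p = 0.0201), and Ptpn11, a phosphatase (0.35 ± 0.09, adjusted p = 0.0335). Upwards 4.14% of all genes passed there. None of the 21 passed in MKO muscle by edgeR, DESeq2 or limma-voom. There 2 had an unadjusted p under 0.05 by edgeR, a description, with no share of all genes given here for that threshold. In MKO muscle Pak1 had 0.40 ± 0.13 (adjusted p = 0.118) and Ptpn11 0.19 ± 0.09 (adjusted p = 0.354). The list median was 0.08 in either genotype, beside 0.002 in MKO and -0.007 in WT muscle for all genes. Agrn itself, which fibres also express, had -0.18 ± 0.12 in MKO and 0.11 ± 0.12 in WT muscle.

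Genes of the synaptic basal lamina moved in both directions with running. In MKO muscle 2 of 16 tested rose and 3 fell, where 2.29% of all genes passed upwards and 1.75% downwards. In WT muscle 2 rose and 4 fell, where 4.14% of all genes passed upwards and 4.10% downwards. Itga3, a laminin-binding integrin subunit, averaged 8.91 ± 0.948 CPM in exercised and 4.78 ± 0.169 CPM in sedentary MKO muscle (0.90 ± 0.16, adjusted p = 0.00694). In WT muscle Itga3 averaged 12.7 ± 2.77 CPM in exercised and 4.84 ± 0.479 CPM in sedentary mice (1.38 ± 0.15, adjusted p = 0.000227). Lama5, a laminin chain, rose by 0.71 ± 0.17 in MKO and 0.80 ± 0.17 in WT muscle (adjusted p = 0.0336 and 0.01). The nidogens, which link laminin to collagen IV, fell: Nid1 had -0.83 ± 0.15 in MKO and -0.71 ± 0.15 in WT muscle, and Nid2 -0.85 ± 0.19 and -0.97 ± 0.19. Lamc1 fell in MKO muscle (-0.45 ± 0.09) and had -0.31 ± 0.09 in WT muscle (adjusted p = 0.0735). Lama4 had -0.48 ± 0.21 in MKO muscle (adjusted p = 0.29) and fell in WT muscle (-0.82 ± 0.21). Hspg2, the perlecan gene, had -0.19 ± 0.11 in MKO muscle (adjusted p = 0.463) and fell in WT muscle (-0.43 ± 0.11). The differences between the genotypes in these responses did not pass. These genes are expressed by other cells of the muscle too: all 8 fibro-adipogenic progenitor markers had negative log2 fold changes with running in either genotype, of which 3 passed in each, with 595 to 792 CPM summed in exercised MKO against 1193 to 1358 in sedentary MKO libraries. The sums were 563 to 640 CPM in exercised WT against 1151 to 1171 in sedentary WT libraries. Smooth muscle and pericyte markers were also negative for all 8 in either genotype (2 passed in MKO and 3 in WT muscle), with sums of 214 to 288 CPM in exercised against 298 to 359 in sedentary MKO libraries, and of 270 to 337 CPM in exercised against 312 to 434 in sedentary WT libraries. Endothelial markers were negative for 6 of 8 in either genotype, with medians of -0.43 in MKO and -0.50 in WT muscle. Their sums were 217 to 288 CPM in exercised against 320 to 350 in sedentary MKO libraries, and 247 to 305 CPM in exercised against 299 to 410 in sedentary WT libraries. The part of these 3 cell types in the laminin and nidogen values was not tested.

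Among 27 tested genes of denervation and myogenic control, 1 rose and 1 fell with running in MKO muscle, where 2.29% of all genes passed upwards and 1.75% downwards. In WT muscle 3 rose and 1 fell, beside 4.14% and 4.10% of all genes. Myog, the gene of myogenin, had 27.9, 19.9 and 21.9 CPM in exercised MKO, against 9.39, 10.2 and 14.8 CPM in sedentary MKO libraries. In WT libraries it had 23.9, 24.3 and 15 CPM after running, against 6.25, 8.23 and 3.22 CPM at rest, and the groups did not overlap in either genotype. Its log2 fold change was 1.02 ± 0.28 in MKO (adjusted p = 0.0762) and 1.84 ± 0.30 in WT muscle (adjusted p = 0.00297); DESeq2 passed it in both genotypes and limma-voom in WT alone. Both tools also passed Mef2c, the gene of a muscle transcription factor, in WT muscle. The difference between the Myog responses was -0.82 ± 0.41 (adjusted p = 0.983). Hdac9, a deacetylase that represses MEF2 targets, had 0.67 ± 0.30 in MKO muscle (adjusted p = 0.32) and rose in WT muscle (1.29 ± 0.32, adjusted p = 0.0272). Id1, an inhibitor of myogenic factors, rose in both genotypes (1.08 ± 0.19 in MKO, adjusted p = 0.00694, and 1.22 ± 0.19 in WT, adjusted p = 0.00179). Fbxo32, the ubiquitin ligase atrogin-1, fell in both (-0.74 ± 0.17 in MKO, adjusted p = 0.0327, and -0.98 ± 0.17 in WT, adjusted p = 0.00405). Between genotypes Ncam1, the neural cell adhesion molecule gene, had 5.69, 4.22 and 9.56 CPM in exercised MKO, against 3.40, 2.95 and 2.80 CPM in exercised WT libraries. Groups did not overlap, as for 23.1% of all genes, and its 1.09 ± 0.27 did not pass (adjusted p = 0.203). The list as a whole did not share that direction. After running 11 of the 27 genes were higher and 16 lower in MKO muscle (median -0.16). At rest 12 were higher and 15 lower (median -0.04).

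Among the postsynaptic cytoskeleton and dystroglycan genes, 21 tested and Musk among them, Nes, the nestin gene, rose with running in MKO muscle (0.54 ± 0.13, adjusted p = 0.0475) and had 0.36 ± 0.14 in WT muscle (adjusted p = 0.139). Phldb2 had -0.57 ± 0.17 in MKO muscle (adjusted p = 0.0913) and fell in WT muscle (-0.83 ± 0.17, adjusted p = 0.00841), where Musk rose. Thus 1 of 21 passed in MKO muscle, beside 4.05% of all genes, and 2 of 21 in WT muscle, beside 8.24%. Dmd, the dystrophin gene, had -0.90 ± 0.23 between exercised MKO and WT muscle (adjusted p = 0.203). DESeq2 passed it. Of 9 tested neuregulin and synaptic transcription genes 0 passed with running in MKO muscle, beside 4.05% of all genes, and 1 in WT muscle, beside 8.24%. That gene, the MAP kinase phosphatase gene Dusp6, fell in WT muscle (-0.66 ± 0.18, adjusted p = 0.0472), though neither by DESeq2 nor by limma-voom. In MKO muscle Dusp6 had -0.63 ± 0.18 (adjusted p = 0.0888). Nrg1 was at 0 in every library. Among 16 tested genes of receptor assembly and 3 of the motor nerve terminal none passed in any comparison by edgeR, DESeq2 or limma-voom. At an unadjusted p under 0.05 by edgeR, receptor assembly had 2 between genotypes after running, beside 16.0% of all genes, and 2 at rest, beside 3.76%. With running it had 2 in MKO and 0 in WT muscle, and the nerve terminal had 1 in each genotype. No share of all genes is given here for running at that threshold, so these counts are a description. Of 15 other cholinergic receptor genes 7 were at 0 in every library, and 2 were tested: Chrna10, the partner subunit of alpha9 in hair cells, at 7.60 to 14.7 CPM, and Chrna2 at 0.242 to 4.38 CPM. Neither passed.

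**Figure D4:**
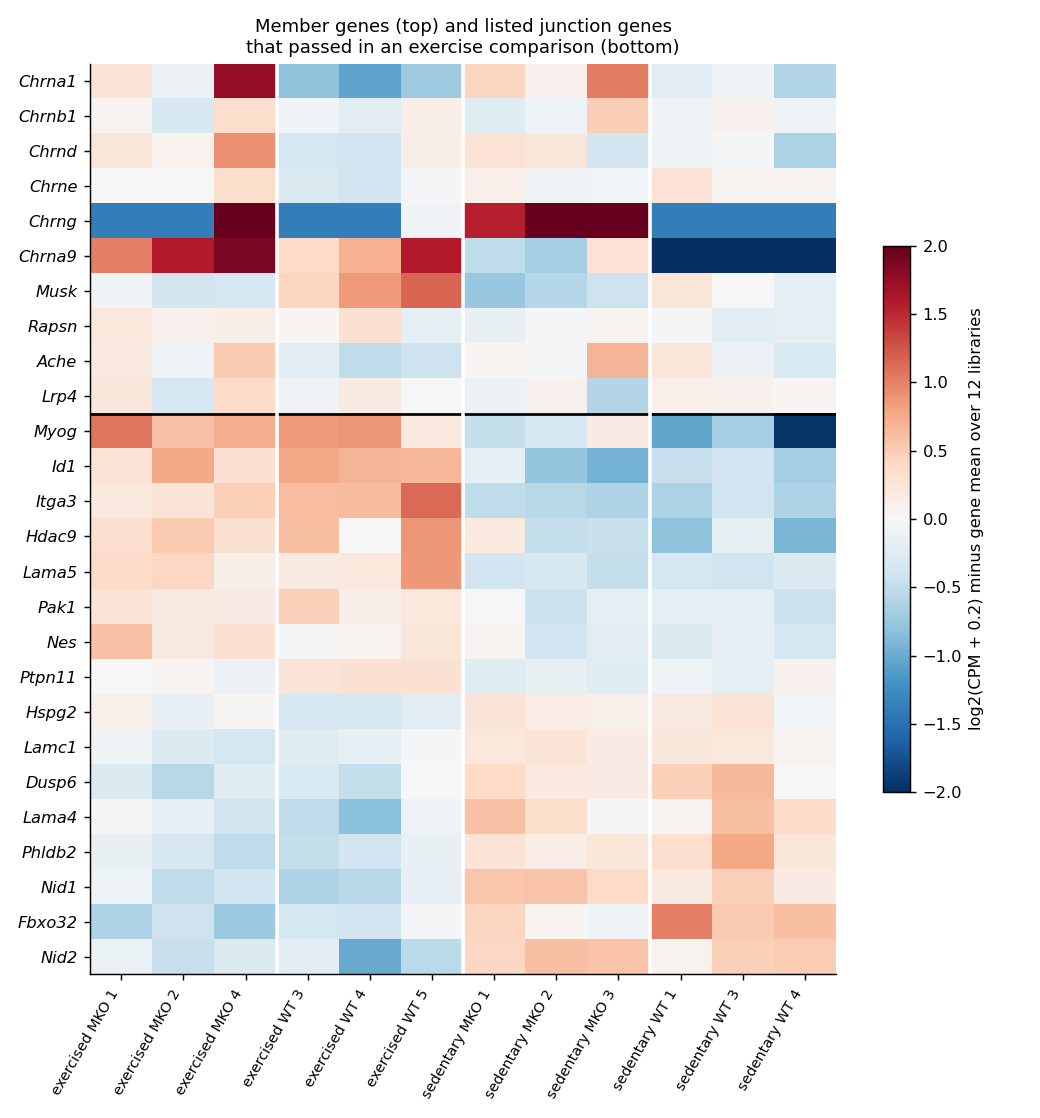
Log2(CPM + 0.2) of each gene minus its mean over the 12 libraries, for the 10 genes (above the line) and the other listed junction genes that passed in an exercise comparison (below it), with libraries in columns by group. Exercised columns are high for Chrna9, Myog, Id1 and Itga3 and low for Nid1, Nid2 and Fbxo32; Musk is high in exercised WT columns, and Chrna1 and Chrng are high in exercised MKO replicate 4 and sedentary MKO replicate 3.

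Markers of other cells were read between the genotypes as well, and no marker of any list passed by edgeR in either state. All 10 macrophage markers had positive log2 fold changes between MKO and WT muscle in both states. There were 9 at an unadjusted p under 0.05 after running, beside 16.0% of all genes, and 5 at rest, beside 3.76%. DESeq2 passed 4 after running, among 84 genes of the table, and none at rest. The median of the 10 markers was 1.17 after running and 0.62 at rest. Their sum was 65.7 to 166 CPM in exercised MKO against 50.5 to 62.6 in exercised WT libraries. In sedentary muscle the sum was 125 to 171 CPM in MKO against 77.5 to 114 in WT libraries. The highest sums, 166 and 171 CPM, were in exercised MKO replicate 4 and sedentary MKO replicate 3, the libraries with the highest Chrna1 and Chrng. Exercised MKO replicate 1 had nearly the same sum, 161 CPM, with Chrna1 at 17.8 CPM and Chrng at 0. Schwann cell markers, from the cells that cap the nerve ending, were positive for 7 of 10 after running and 9 of 10 at rest, with sums of 62.5 to 301 CPM in exercised MKO and 85.5 to 224 in exercised WT libraries, and of 83.7 to 390 CPM in sedentary MKO and 71.2 to 176 in sedentary WT libraries. Satellite cell markers, from the stem cells of muscle, summed to 18.5 to 22.5 CPM in exercised MKO against 23.8 to 24.8 in exercised WT libraries, and to 23.6 to 29.9 in sedentary MKO against 25.0 to 26.2 in sedentary WT libraries. Their signs were split, with 4 of 8 positive after running (median 0.06) and 6 of 8 at rest (median 0.29). Fibro-adipogenic progenitor markers were positive for 7 of 8 after running (median 0.53) and for all 8 at rest (median 0.26). After running 4 of them had an unadjusted p under 0.05, beside 16.0% of all genes. Red blood cell markers were positive for all 5 in both states, with medians of 0.43 after running and 0.93 at rest. At rest 4 had an unadjusted p under 0.05, beside 3.76% of all genes. Their sums were 513 to 836 CPM in exercised MKO against 447 to 573 in exercised WT libraries, and 1357 to 2278 CPM in sedentary MKO against 419 to 1683 in sedentary WT libraries. Slow-fibre markers were positive for 9 of 10 in both states, with medians of 0.37 after running and 0.55 at rest. Their summed levels overlapped in both states, but at rest through sedentary MKO replicate 3 alone. The sums there were 4101, 4041 and 1121 CPM in MKO (replicates 1, 2 and 3), against 3275, 3264 and 2519 CPM in WT libraries. The part of these cells in the values of Chrna1, Chrng, Ache and Musk was not tested.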

How the data were processed

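Total RNA of gastrocnemius in 12 samples was sequenced on the DNBSEQ platform, per the labels, whose protocol gives 18 as the number of libraries. The deposited values are raw counts per Ensembl gene, which the authors left unnormalised. Tools named in the submitters' processing notes are HISAT2 2.2.1, SAMtools 1.9 and StringTie 2.1.4, with the build GRCm38.p6. Which tool made the counts, the strand setting and the treatment of reads with several matches do not appear in the sources used here. A column with a misspelt name was read as exercised MKO replicate 4, since every other sample had its own column. Symbols and positions came from GENCODE M21 and matched 42548 identifiers; the other 884 held 0.0875% of counts.

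Counts were tested with edgeR 4.0.16 (R 4.3.3): filterByExpr at a minimum count of 10, TMM factors (0.928 to 1.15), 1 mean per group, 8 residual degrees of freedom, quasi-likelihood F tests with Benjamini-Hochberg adjustment, and a threshold of 0.05. Levels are CPM as mean ± SD, divided by merged exon length where genes are compared. Where samples are not stated to come from separate animals, p-values cover no more than the spread of these libraries. The members, the lists and the rule for named genes (all members, listed genes that passed, up to 2 more per list and comparison by p, and the 3 genes nearest to a member) were chosen with earlier results of these data known. Tested on simulated data for the sedentary genotype comparison, the model recovered 76% of the genes changed 2-fold and 90% of those changed 4-fold, and made 12 false calls over the 14253 genes of that run. The changed genes, 100 of each size, all had a mean of at least 1 CPM. In the real comparison 1 gene passed, so these shares do not give the power there. Alternatives were DESeq2 1.42.0, limma-voom (limma 3.58.1), 2 other scalings, 2 other filters, only the compared groups, the replicate block, libraries left out, and averages over states or genotypes added after the data were seen. No replicates were duplicates: squared differences were 4.63 to 49.3 times sampling noise. Figures were drawn with matplotlib 3.10.9.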

Additional observations from a re-analysis of the deposited data

How the results depend on the processing

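Of 1077 member values under alternatives, 1016 were scored as keeping their direction and their side of the threshold. Of the rest, 12 lost a call, 7 gained one and 42 changed sign, none of the 42 called. The cause of these changes was not tested. Values that rounded to 0.00 were not scored for sign. Chrnb1 in the difference of responses (0.00) was such a value, with -0.18 to 0.25 over left-out libraries. The calls that changed are given beside their genes above, other than those under the replicate block, which follow here, and that of Chrng with running in MKO muscle without the 3 outlying libraries (lower after running, adjusted p = 0.0349). There Chrng met the filter only through sedentary MKO libraries, in which it is high, so that value is a description.

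Genes passing between exercised MKO and WT muscle (5) were 2 without a filter, 84 by DESeq2, 2 with the replicate block, 2 averaged over the states and 2 to 108 with a library left out, and members passing (0) were 1 by DESeq2 and 0 to 1. At rest (1 gene) they were 3 by DESeq2, 3 by limma-voom, 2 with only the groups compared, 0 with the block, 3 without the 3 outlying libraries (exercised WT 5, exercised MKO 4, sedentary MKO 3), 2 averaged and 1 to 3 left out. For running in MKO muscle (586 genes, 1 member) the block gave 361 genes and 0 members (Chrna9 lost, adjusted p = 0.0548), no filter 0 members, the 3 libraries left out 2 members, the average 1965 genes and 2 members, and left-out libraries 316 to 629 genes and 0 to 1 members. For running in WT muscle (1193 genes, 2 members) the block gave 602 genes and 1 member (Musk lost, adjusted p = 0.138), the average over genotypes 1965 genes, and left-out libraries 1 to 2 members. For the difference of responses (0 genes) total counts as library size gave 1, DESeq2 3, limma-voom 4, the 3 libraries left out 3, and left-out libraries 0 to 3.

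Signs changed as follows (log2). With the block: Rapsn -0.06 and Lrp4 -0.02 after running (MKO against WT); Chrnd -0.15, Chrng -0.56 and Lrp4 0.01 with running in WT; Chrnb1 0.04 and Ache 0.07 in MKO. Without the 3 libraries: Rapsn -0.03 and Lrp4 -0.09 after running, Chrnb1 -0.14 at rest, Chrnd -0.16 with running in WT, and Chrna1 -0.17, Chrnb1 0.06, Chrnd -0.11, Chrne -0.01, Ache 0.07 and Lrp4 -0.01 in MKO. Averaged: Lrp4 -0.09 and Chrne 0.10 between genotypes, and with running Lrp4 0.14 against WT, and Chrna1 -0.14, Chrne -0.11 and Chrng 1.42 against MKO. With total counts: Chrnd -0.06 in WT and Chrne -0.01 in MKO. With a library left out the ranges were, after running, Chrnb1 -0.07 to 0.27, Chrng -3.62 to 7.41, Rapsn -0.05 to 0.19 and Lrp4 -0.08 to 0.27; at rest, Chrnb1 -0.15 to 0.25; in WT with running, Chrnb1 -0.13 to 0.06, Chrnd -0.16 to 0.15 and Lrp4 -0.10 to 0.03; in MKO, Chrna1 -0.49 to 0.63, Chrnb1 -0.20 to 0.24 and Ache -0.20 to 0.25; and for the difference, Rapsn -0.15 to 0.09.

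The replicate numbers share only a number: deviations of 10 same-numbered pairs correlated at -0.153 to 0.0759, and 0 of 10 exceeded 0.1. Chrng was at 0 in 7 libraries and Chrna9 in 3, and levels below the counting floor of 3 counts (0.181 to 0.222 CPM) were not resolved at this depth. In the other libraries Chrng had 4 to 70 counts and Chrna9 5 to 41.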
